A study of Mus musculus with 27 samples.

Results

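Hemoglobin and heme genes were followed in developing and adult mouse esophagus through 6 genes of red blood cells, namely Hbb-bh1, Hbb-y, Hba-x, Hba-a1, Hbb-b1 and Alas2. They were taken by gene name from the array annotation, which gave 6 of 27962 gene names and 11 of 41174 probes. The genes were chosen by their Cy5 to Cy3 ratios, which had been seen to differ between stages in these arrays, and because embryonic against adult globins can check an embryonic age label. Their levels by stage are therefore given as a description, with no test. Comparisons between genotypes of one age were tested, although the ratios of all 9 groups had been seen when the genes were chosen.

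Each hemoglobin molecule joins chains of the alpha family to chains of the beta family around heme. The first red cells of a mouse embryo arise in the yolk sac and carry embryonic chains, and red cells made later in the fetal liver carry adult chains, a change known as globin switching. Blood left in a dissected tissue brings red cell RNA with it, and the cells that gave the signal were not identified here. In bulk RNA, fewer cells of a type and less RNA per cell cannot be told apart.

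Whole esophagi of wild-type C57BL/6J mice were collected on embryonic days 11.5 and 15.5 (E11.5, E15.5) and on postnatal days 0 and 7 (P0, P7). Whole esophagi of Nrf2-/-, Keap1-/- and Nrf2-/-Keap1-/- pups on a C57BL/6J background, bred from Nrf2-/- and Keap1+/- mice, were collected at P7, and epithelium of the esophagus was taken from wild-type C57BL/6J and Nrf2-/- mice at 8 weeks. Nrf2 is a transcription factor of the antioxidant response and Keap1 the protein that marks it for degradation. Each of the 9 groups held 3 arrays, and per the methods each array carried RNA of an individual esophagus. Sample RNA was labelled with Cy5 and a reference RNA pooled from 11 mouse cell lines, the same for all 27 arrays, with Cy3, without dye swap. Values below are log2 ratios of Cy5 to Cy3 unless called levels, which are the log2 signal of one channel after scaling between arrays.

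The probes show which transcripts were read, and how far the probes of a gene are independent. They are printed 5' to 3' as the scanner files give them, with mm9 positions, and capitals mark bases that 2 probes of the same gene share. Hbb-bh1 was read at chr7:110990327-110990386 and chr7:110990307-110990366 on the minus strand, by probes that overlap by 40 bases.
Hbb-bh1 probe 1: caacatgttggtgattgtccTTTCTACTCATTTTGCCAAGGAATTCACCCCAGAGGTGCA
Hbb-bh1 probe 2: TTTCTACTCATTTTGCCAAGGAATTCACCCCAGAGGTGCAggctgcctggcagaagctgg
Hbb-y was read by 1 probe at chr7:111001412-111001471 on the minus strand and Hba-x by 1 probe at chr11:32177668-32177727 on the plus strand.
Hbb-y: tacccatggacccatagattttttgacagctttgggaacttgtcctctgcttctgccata
Hba-x: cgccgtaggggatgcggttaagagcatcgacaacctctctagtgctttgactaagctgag
Hba-a1 was read by a probe whose ends lie at chr11:32183775-32183956 on the plus strand, so that it crosses an intron, and by a probe without a position in the annotation. The 2 probes overlap by 30 bases, of which 27 are identical.
Hba-a1 probe 1: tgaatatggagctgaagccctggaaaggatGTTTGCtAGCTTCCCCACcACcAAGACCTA
Hba-a1 probe 2: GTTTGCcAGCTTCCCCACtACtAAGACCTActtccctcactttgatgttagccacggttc
Hbb-b1 was read by 4 probes, of which those at chr7:110962031-110962090 and chr7:110962000-110962059 on the minus strand share 29 bases.
Hbb-b1 probe 1: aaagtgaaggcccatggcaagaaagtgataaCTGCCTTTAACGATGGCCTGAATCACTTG
Hbb-b1 probe 2: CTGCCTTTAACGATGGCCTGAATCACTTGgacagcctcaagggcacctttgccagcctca
Between probes of different members the longest shared run was 9 bases over 47 pairs. Over the 27 arrays the ratios of the 2 Hbb-bh1 probes correlated at r = 0.996 and those of the 2 Hba-a1 probes at 0.956. The 4 Hbb-b1 probes correlated at 0.61 to 0.86 and lay up to 3.76 apart on one array. The mouse genome holds near-identical copies of the adult alpha and beta genes, so the Hba-a1 and Hbb-b1 values may include reads of their copies.

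The promoters of the members are shown because the genes move in 2 sets, embryonic and adult. Below are the 120 bases before the transcription start in RefSeq GRCm38.p6. Capitals mark, on either strand, the CACCC box, the CCAAT box, the core GATAA and the TATA box in its forms TATAA and also ATAAA, which can overlap. Hbb-bt is the current RefSeq name of the transcript that the Hbb-b1 probes were designed on, and no entry matched Hbb-bh1.
Hbb-y, chr7:103853208-103853327, minus strand: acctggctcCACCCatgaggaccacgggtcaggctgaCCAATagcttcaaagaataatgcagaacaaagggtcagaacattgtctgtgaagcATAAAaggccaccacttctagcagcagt
Hba-x, chr11:32276480-32276599, plus strand: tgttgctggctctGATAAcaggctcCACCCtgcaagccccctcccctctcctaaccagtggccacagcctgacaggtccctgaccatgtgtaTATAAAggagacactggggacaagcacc
Hba-a1, chr11:32283552-32283671, plus strand: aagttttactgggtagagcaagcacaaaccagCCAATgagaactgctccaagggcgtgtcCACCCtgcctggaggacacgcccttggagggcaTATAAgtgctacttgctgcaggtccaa
Hbb-bt, chr7:103813924-103814043, minus strand: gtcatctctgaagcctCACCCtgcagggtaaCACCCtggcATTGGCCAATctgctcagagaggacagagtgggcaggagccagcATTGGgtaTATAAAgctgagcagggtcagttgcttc
Alas2, chrX:150547297-150547416, plus strand: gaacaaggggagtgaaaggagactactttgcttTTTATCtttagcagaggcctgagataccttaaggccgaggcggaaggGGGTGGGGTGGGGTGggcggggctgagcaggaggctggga
All 5 windows held a CACCC box, the letters bound by factors of the Klf1 type, which 31.7% of 32841 promoters in the same table hold. CCAAT stood in Hbb-y, Hba-a1 and Hbb-bt, and in 21.3% of all promoters. GATAA, the core of a GATA site, stood in Hba-x and Alas2, and in 10.5%. A TATA box in one of its forms stood in all 4 globin promoters with its first base at -28 or -27. Anywhere in the window TATAA stood in 11.8% of all promoters and the form ATAAA in 20.2%, here also in Alas2 further upstream.

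Median signal per array ranged from 81.8 to 226 in Cy5 and from 115 to 386 in Cy3, and 58.9% to 69.3% of Cy5 spots were well above background. Of 297 member spots, 88 (29.6%) carried an outlier mark and were kept, and none was saturated. Nfe2l2, which encodes Nrf2, lay between -3.37 and -3.14 on the 6 Nrf2-null arrays at P7 against -0.52 to -0.01 in wild-type esophagi, and between -2.41 and -1.72 on Nrf2-/- adult arrays against 0.98 to 1.46. Keap1 lay between -0.27 and 0.64 on Keap1-/- arrays and between -0.50 and -0.19 on Nrf2-/-Keap1-/- arrays, against 0.42 to 1.00 in wild-type esophagi. Squamous epithelium markers averaged at least 3.19 in every group from P0 on, and 0.47 to 2.94 on the embryonic arrays. For the 3 Keap1-/- arrays, which shared a slide and scan day with no other group, slide, scan day and genotype cannot be told apart. The 3 wild-type P7 arrays also shared their slide with no other group. Slide and genotype can therefore not be told apart in any comparison with wild type at P7.

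The globins went against 2 of the embryonic labels. The difference between the mean ratio of the 3 embryonic globins and the mean ratio of the 2 adult globins was 1.23 and 0.88 on the arrays labelled E11.5 replicates 1 and 2, but -1.98 on the array labelled E11.5 replicate 3. It was -2.91 and -2.86 on the arrays labelled E15.5 replicates 2 and 3, but 1.36 on the array labelled E15.5 replicate 1. The zero of this difference is set by the levels in the reference RNA, so it compares arrays and does not say which transcripts were more abundant. The 3 highest values were on 2 arrays labelled E11.5 and 1 labelled E15.5. From P0 on this difference was between -5.20 and -2.41 on all 21 arrays. The other genes divided the embryonic arrays into the same sets as this difference. The globin ratios taken singly did not do so for E11.5 replicate 2. By distance over these ratios it lay nearer E11.5 replicate 3 (4.13) than E11.5 replicate 1 (5.17) or E15.5 replicate 1 (4.84). Over 18573 genes other than the members, the array labelled E15.5 replicate 1 correlated at r = 0.957 with E11.5 replicate 1 and at 0.801 and 0.811 with E15.5 replicates 2 and 3. The array labelled E11.5 replicate 3 correlated at 0.982 and 0.977 with E15.5 replicates 2 and 3 and at 0.829 and 0.771 with E11.5 replicates 1 and 2. The groups were kept as labelled, and comparisons that involve E11.5 or E15.5 are given with and without these arrays. The tests from P0 to P7 take their spread from a fit that includes both arrays. They were run without each array in turn, but not without both.

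**Figure D1:**
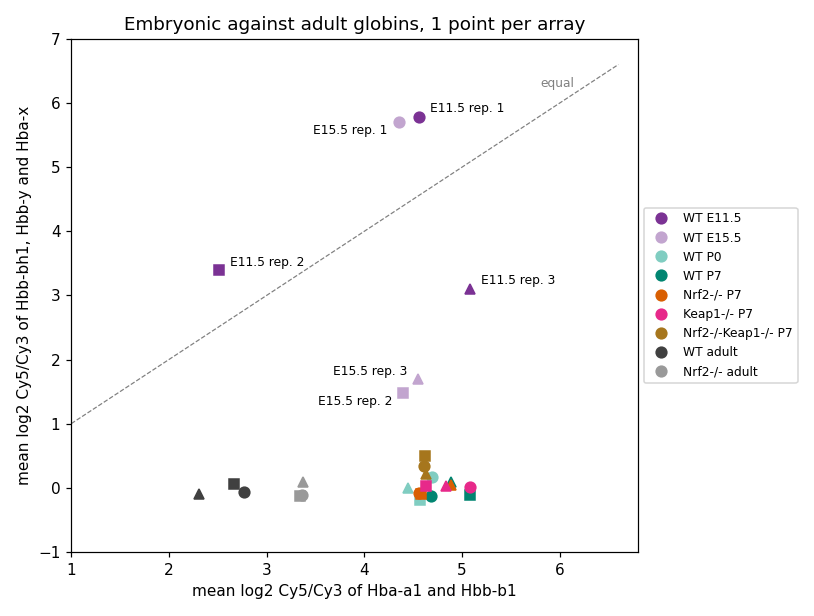
Mean log2 Cy5/Cy3 of Hbb-bh1, Hbb-y and Hba-x (y axis) against mean log2 Cy5/Cy3 of Hba-a1 and Hbb-b1 (x axis), 1 point for each of 27 arrays. Colours give the group, shapes the replicate (circle 1, square 2, triangle 3), and the dashed line marks equal mean ratios, whose zero the reference RNA sets. The arrays labelled E11.5 replicates 1 and 2 and E15.5 replicate 1 lie above the line, and all others lie below it.

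Hbb-bh1 encodes an embryonic beta-type chain. In the order of replicates 1 to 3 its ratio was 4.99, 3.31 and 2.10 under the E11.5 label and 5.08, 0.47 and 0.37 under the E15.5 label. These groups overlapped through the array labelled E15.5 replicate 1, which was the highest of all 27. From P0 on, the group means lay between -0.51 and -0.29, and neighbours in that order overlapped. There neither probe was well above background in Cy5 on any array, so these ratios carry no order. As bounds on the Cy5 level, Hbb-bh1 was at least 79.1-fold higher at E11.5 than at P0, at least 11.7-fold higher at E15.5 than at P0, and at least 77.8-fold higher at E11.5 than in adult epithelium. Single arrays carried these bounds. Without the array labelled E15.5 replicate 1 the bound of 11.7 was 1.58. The bounds of 79.1 and 77.8 became 323 and 318 when E11.5 replicate 3 was left out. Leaving out E11.5 replicate 1 gave 28.8 and 28.4, E11.5 replicate 2 gave 53 and 52.1, and E15.5 replicate 2 or 3 gave 31 and 32.7. For a probe not above background the bound took the lowest level well above background on that array, where this was the higher.

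Hbb-y encodes the embryonic epsilon-y beta chain and had the highest single ratio of all members. It was 7.71, 4.66 and 3.76 under the E11.5 label and 7.52, 1.71 and 2.30 under the E15.5 label. Every embryonic array was above every array of P0 (0.46, -0.11 and 0.40) and of P7 in wild-type mice (0.43, 0.27 and 0.51). Unlike the other embryonic globins, Hbb-y stayed well above background in Cy5 on all 27 arrays. Its order of group means was E11.5 (5.38 ± 2.07, SD, n = 3), E15.5 (3.84 ± 3.20) and Nrf2-/-Keap1-/- at P7 (1.38 ± 0.42), followed by 6 groups with means between 0.25 and 0.40. E15.5 and Nrf2-/-Keap1-/- overlapped (lowest 1.71, highest 1.84), Nrf2-/-Keap1-/- did not overlap the group next below it, and further neighbours in the order overlapped.

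Hba-x encodes zeta globin, the embryonic alpha-type chain. Its ratio was 4.66, 2.20 and 3.44 under the E11.5 label and 4.51, 2.27 and 2.40 under the E15.5 label. The 2 ages overlapped, and all 6 arrays were above the highest later array (0.30). Hba-x was well above background in Cy5 on the embryonic arrays alone. On the scale of Cy5 levels it was at least 90.5-fold higher at E11.5 than at P0 and at least 18.6-fold higher at E15.5 than at P0. Without the array labelled E11.5 replicate 3 the first bound was 222, and without the array labelled E15.5 replicate 1 the second was 4.31. Leaving out E11.5 replicate 1 gave 36.2, and E15.5 replicate 2 or 3 gave 40.4 and 36.9.

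Hba-a1 encodes the adult alpha chain. The 3 E11.5 arrays read 4.29, 1.94 and 4.45 and the E15.5 arrays 3.80, 3.86 and 3.98. It read 4.23, 4.02 and 3.93 at P0 and 4.12, 4.43 and 4.36 in wild-type esophagi at P7. Only E11.5 replicate 2 stood apart before adulthood, at less than the lowest other array of any esophagus (3.80). Hbb-b1, the adult beta chain, followed the same order, with 4.83, 3.09 and 5.71 at E11.5, 4.90, 4.92 and 5.12 at E15.5, and group means of 5.08 at P0 and 5.47 at P7. E11.5 replicate 2 was again the lowest of the esophagi.

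Alas2 is the red cell form of the first enzyme of heme synthesis. It read 3.64, 1.61 and 4.10 at E11.5, 3.21, 3.31 and 3.71 at E15.5, 3.84, 3.55 and 3.65 at P0, and 3.90, 4.40 and 4.02 at P7. The replicate that was low in the adult globins, E11.5 replicate 2, was low here too. Alas2, Hba-a1 and Hbb-b1 correlated with each other at r = 0.94 to 0.96 over the 27 arrays, and the 3 embryonic globins at 0.92 to 0.98. Between the sets r was -0.05 to 0.07. The points share the reference and slides, and without the 6 embryonic arrays the embryonic globins correlated at only -0.00 to 0.44.

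**Figure D2:**
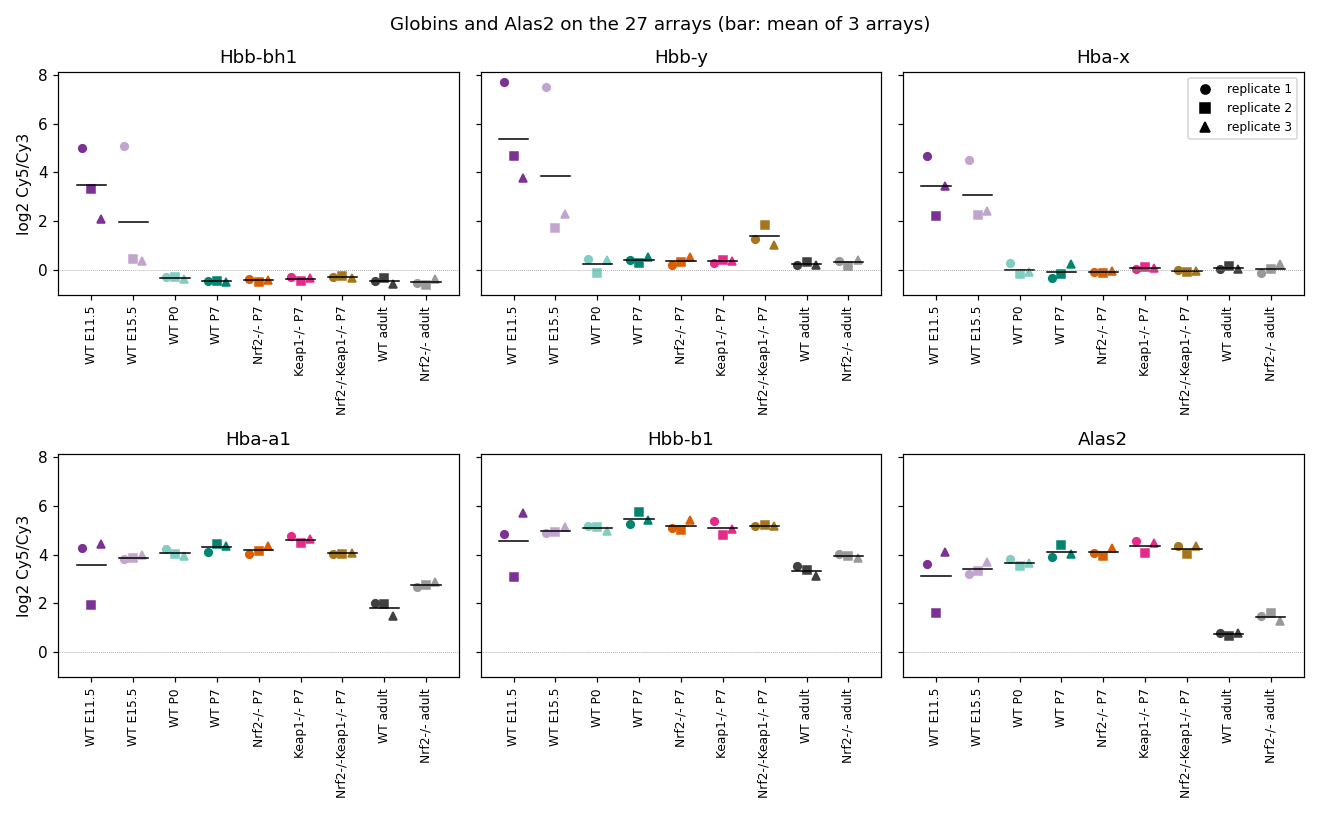
Log2 Cy5/Cy3 (y axis) of each member on the 27 arrays, by group along the x axis. Points are arrays, shapes are replicates, and bars are means of 3 arrays. The embryonic globins in the upper row are above 0.3 on all embryonic arrays, Hbb-bh1 and Hba-x stay near 0 later, and Hba-a1, Hbb-b1 and Alas2 in the lower row have their lowest group means in adult epithelium.

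From E11.5 to E15.5 as labelled, the mean ratio moved by -1.49 for Hbb-bh1, -1.54 for Hbb-y and -0.37 for Hba-x. It moved by 0.32 for Hba-a1, 0.44 for Hbb-b1 and 0.30 for Alas2. None of the 6 members had groups that did not overlap (lower without overlap, 2.02% of all genes; higher, 1.78%). Without both arrays that stood apart the same differences were -3.73, -4.18 and -1.09 for the embryonic globins and 0.81, 1.07 and 0.89 for the others. These arrays stood apart in the same globin ratios, so leaving them out was bound to enlarge the globin differences. On the slide that held all 3 E11.5 arrays and E15.5 replicate 1, this array was above the E11.5 mean by 1.62 for Hbb-bh1, 2.14 for Hbb-y and 1.08 for Hba-x.

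From E15.5 to P0 the mean ratio moved by -2.29 for Hbb-bh1, -3.59 for Hbb-y and -3.04 for Hba-x. All 3 embryonic globins were lower at P0 without overlap, as were 21.1% of all genes. Without both arrays the differences were -0.74, -1.75 and -2.32. Hba-a1, Hbb-b1 and Alas2 moved by 0.18, 0.10 and 0.27 and their groups overlapped. Between P0 and P7 no member moved by more than 0.43 in either direction. Hbb-b1 (0.39) and Alas2 (0.43) were higher at P7 without overlap (14.5% of all genes), and Hbb-bh1 (-0.15) was lower without overlap (13.7%) but below background.

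From wild-type esophagus at P7 to epithelium at 8 weeks the tissue changed with the age. Hba-a1 was 2.01, 1.98 and 1.49 on the adult arrays, 2.47 lower on average. Hbb-b1 was 3.53, 3.36 and 3.12, which is 2.14 lower, and Alas2 was 0.78, 0.66 and 0.77, which is 3.37 lower. All 3 were lower without overlap, as were 28.7% of all genes, and remained well above background in Cy5. Hbb-y moved by -0.15 and its groups overlapped. Endothelial markers averaged 2.68 to 2.97 on the P7 arrays and 1.61 to 2.35 on the adult arrays, and striated muscle markers 4.80 to 5.36 and 0.16 to 1.29. The 7 platelet markers averaged 0.69 to 0.97 at P7 and -0.80 to -0.34 in adults, and the 7 liver and plasma protein markers 2.94 to 4.38 and -0.41 to -0.16. Their part in the result was not tested.

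The ratios understate the range of the sample signal, because the reference channel rose with it. The reference RNA was the same on every array, yet the Cy3 signal of the 11 member probes varied with an SD of 0.57 to 2.41 on the log2 scale, against a median of 0.22 over all spots. Across arrays it correlated with Cy5 at r = 0.87 to 0.99. The Cy3 level of Hba-x was 10.79, 10.55 and 6.77 under the E11.5 label, 10.22, 6.01 and 6.14 under the E15.5 label, and 5.97 to 6.37 later. Its Cy5 level was 15.45, 12.75 and 10.21 and then 14.74, 8.28 and 8.54, so that the same 3 arrays were high in both channels. Among 686 other spots with a Cy5 SD of at least 1.94, the median Cy3 SD was 0.84 and the median r was 0.93. The cause was not tested.

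On the Cy5 level alone, which was added as an alternative after seeing the data, the same 3 embryonic arrays were highest in all 3 embryonic globins. Hbb-bh1 read 15.65, 13.89 and 8.68 under the E11.5 label and 15.76, 7.17 and 7.02 under the E15.5 label. The array labelled E11.5 replicate 3 thus lay below E11.5 replicates 1 and 2 and above E15.5 replicates 2 and 3 in Hbb-bh1, in Hbb-y and in Hba-x. It also had the highest Cy5 level of all 27 arrays in Hba-a1 (18.20), Hbb-b1 (18.08) and Alas2 (13.75). Liver and plasma protein markers, of which 7 of 8 were measured, divided the embryonic arrays into the same sets as the globins. Their mean ratio was 2.07 on the array labelled E11.5 replicate 3 and 1.60 and 1.67 on E15.5 replicates 2 and 3, with 6 of 7 well above background. It was -0.23, -0.11 and -0.01 on E11.5 replicates 1 and 2 and E15.5 replicate 1, with 1 to 3 above background. Alb1, which encodes serum albumin, was 3.38, 3.21 and 3.11 on the first 3 and 0.68, 0.31 and 0.60 on the others. Their part in the result was not tested.

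**Figure D3:**
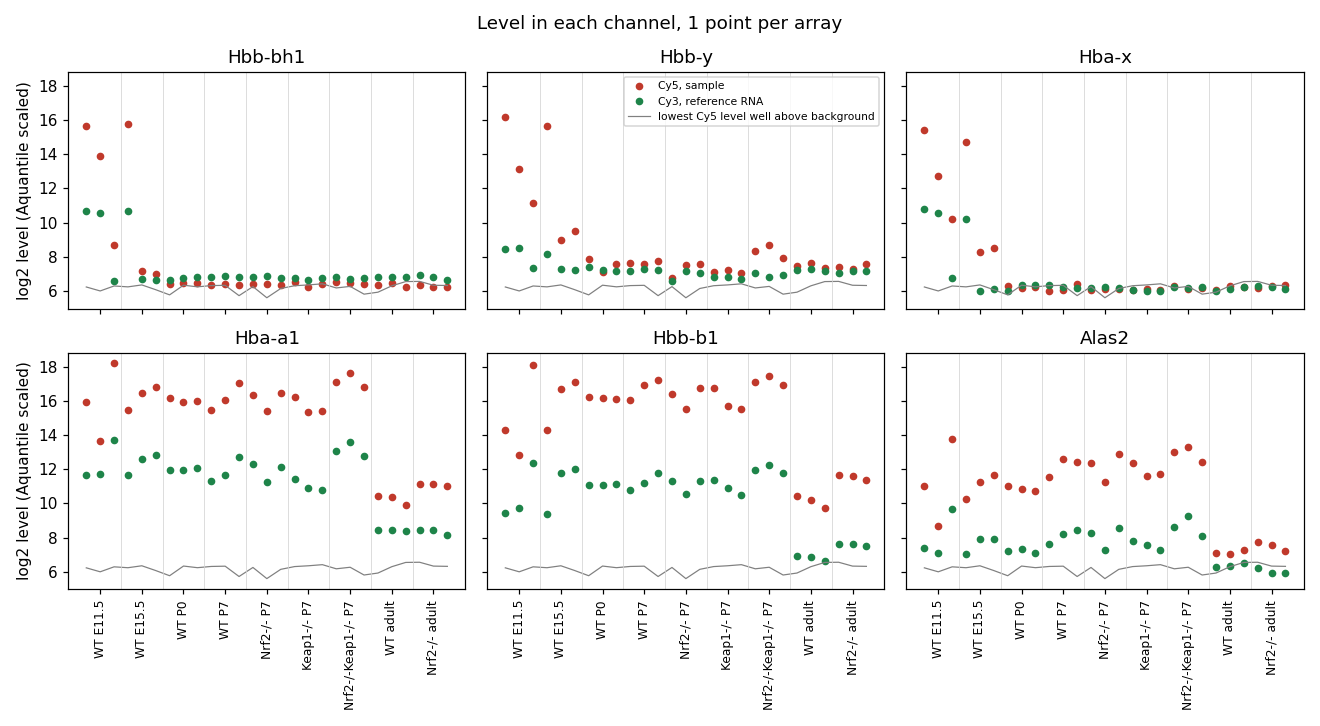
Log2 level (y axis, scaled between arrays by the Aquantile method) of each member in Cy5, which held the sample, and in Cy3, which held the reference RNA, for the 27 arrays in order of group and replicate. The grey line is the lowest Cy5 level well above background on each array. Cy3 points rise where Cy5 points rise, and Hbb-bh1 and Hba-x meet the grey line from P0 on.

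Loss of Nrf2 did not move the members detectably at P7. None of the 4 members tested was called, where called means an adjusted p of 0.05 or lower in limma (0.0157% of 19062 genes, of which 2025 had an unadjusted p under 0.05). Hbb-bh1 and Hba-x were left out at P7 and in adults because they were not above background. Differences of Nrf2-/- from wild-type esophagi were -0.05 ± 0.18 for Hbb-y (SE, adjusted p = 0.946), -0.12 ± 0.12 for Hba-a1 (0.73), -0.30 ± 0.17 for Hbb-b1 (0.549) and -0.00 ± 0.17 for Alas2 (0.995), and all groups overlapped. No member had an unadjusted p under 0.05 here.

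In Keap1-/- esophagi none of the 4 members was called, beside 33.5% of all genes. Hba-a1 was 4.76, 4.47 and 4.63 on the Keap1-/- arrays against 4.12, 4.43 and 4.36, a difference of 0.32 ± 0.12 (adjusted p = 0.0567). Its groups did not overlap, as for 20.8% of all genes in that direction. Hbb-b1 was lower by 0.39 ± 0.17 (0.0986) and Alas2 was 0.27 ± 0.17 higher (0.259), both with overlap. When loess was replaced by centring on array medians, Hba-a1 (0.84, adjusted p = 0.000986) and Alas2 (0.64, 0.00197) were called as higher, and on the Cy5 level alone both were lower, by 0.53 and 0.29. The direction for Hba-a1 and Alas2 thus depended on the scaling. Of 12 tests with an array left out, 3 called Hba-a1 (adjusted p 0.0428 to 0.19 over all 12).

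In Nrf2-/-Keap1-/- esophagi the embryonic globin Hbb-y was the 1 member called (0.488% of all genes called, 0.367% as higher). Its ratio was 1.27, 1.84 and 1.03 on these arrays and 0.43, 0.27 and 0.51 in wild-type esophagi. All 3 arrays were above the highest of the other 9 arrays at P7 (0.54), and the mean was 1.97-fold that of wild type (difference 0.98 ± 0.18, adjusted p = 0.0463). The mean of Hbb-y (1.38) was below its means at E11.5 (5.38) and E15.5 (3.84), but its highest array overlapped the lowest E15.5 array (1.71). In the Cy5 channel it read 8.32, 8.68 and 7.94 against 7.61, 7.57 and 7.76, and in Cy3 7.04, 6.84 and 6.91 against 7.18, 7.30 and 7.25, so that Cy5 was higher and Cy3 lower than in every wild-type array. Within the slide shared with the 3 Nrf2-/- arrays, Nrf2-/-Keap1-/- replicate 1 was 0.92 above their mean. No slide held both wild-type and Nrf2-/-Keap1-/- arrays of P7, so genotype and slide cannot be told apart in the call against wild type.

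The call for Hbb-y was near its threshold. It was lost when any array other than wild-type replicate 3 was left out (11 of 12, adjusted p up to 0.125), with the replicate number as a block (0.0706), with array medians in place of loess (0.86, 0.0594), with Feature Extraction's own processed signals (1.25, 0.0955) and on the Cy5 level alone (0.67, 0.13). All these differences were positive. The other embryonic globins were below background in these esophagi. Hbq1, a theta globin and the only 1 of 7 other listed globin genes on the array, was 0.55 ± 0.16 higher (adjusted p = 0.127). Hba-a1 (-0.25 ± 0.12, adjusted p = 0.3) and Hbb-b1 (-0.28 ± 0.17, 0.434) had groups that did not overlap, as for 9.99% of all genes in that direction, and Alas2 differed by 0.15 ± 0.17 (0.71). With array medians in place of loess, Hba-a1 and Hbb-b1 were higher by 0.08 and 0.07.

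In adult epithelium Hba-a1, Hbb-b1 and Alas2 had higher ratios in Nrf2-/- mice than in wild-type mice, without passing the threshold. Hba-a1 was 2.68, 2.74 and 2.88 against 2.01, 1.98 and 1.49 (difference 0.94 ± 0.16, adjusted p = 0.068). Hbb-b1 was 4.05, 3.95 and 3.87 against 3.53, 3.36 and 3.12 (0.62 ± 0.14, 0.112). Alas2 was 1.48, 1.60 and 1.28 against 0.78, 0.66 and 0.77 (0.71 ± 0.13, 0.0718). None of the 3 overlapped, as for 13.4% of all genes in that direction, while 0.432% of all genes were called. All 3 had an unadjusted p under 0.05, at most 0.00198. For Alas2 the Cy3 signal was not well above background on any Nrf2-/- array or on wild-type replicate 3. Its Cy5 level was 7.73, 7.56 and 7.22 in Nrf2-/- against 7.09, 7.02 and 7.26 in wild type, with overlap.

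The adult difference depended on gene and scaling. Array medians in place of loess gave a call for Hba-a1 (1.49, adjusted p = 0.0359), and the Cy5 level alone gave one for Hbb-b1 (1.42, 0.0234). With Feature Extraction's own processed signals, Hbb-b1 differed by -0.05 (0.898), Hba-a1 by 0.69 (0.263) and Alas2 by 1.73 (0.13). No slide held adult arrays of both genotypes, and wild-type replicates 1 and 2 shared no scan day with a Nrf2-/- array. On the scan day that held arrays of both genotypes, 2 Nrf2-/- arrays were above 1 wild-type array by 1.22 for Hba-a1, 0.88 for Hbb-b1 and 0.77 for Alas2. That wild-type array was the lowest of its group in Hba-a1 (1.49) and Hbb-b1 (3.12). Genotype, slide and scan day can therefore not be told apart here. Hbb-y differed by 0.07 ± 0.12 (0.81). Endothelial markers averaged 1.98 to 2.14 in Nrf2-/- epithelium and 1.61 to 2.35 in wild type, and striated muscle markers 1.10 to 2.19 and 0.16 to 1.29. Their part in the result was not tested.

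**Figure D4:**
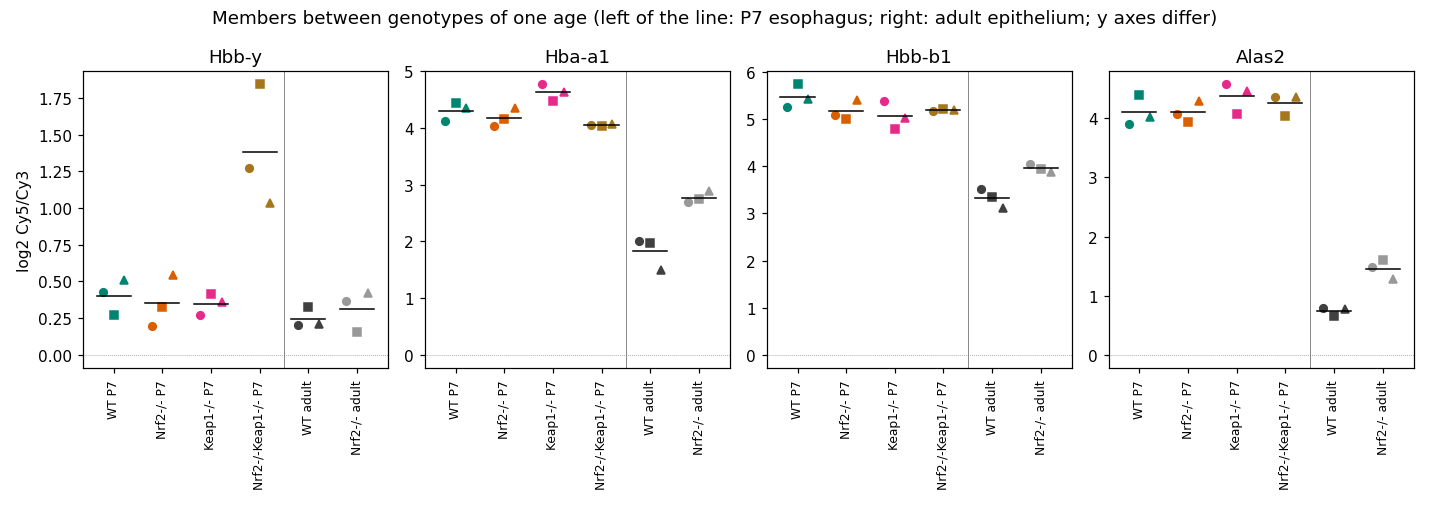
Log2 Cy5/Cy3 (y axes, which differ between panels) of the 4 members tested between genotypes, at P7 left of the vertical line and in adult epithelium right of it. Points are arrays, shapes are replicates and bars are means of 3 arrays. Hbb-y is above 1 on all 3 Nrf2-/-Keap1-/- arrays and below 0.55 on all others, and Hba-a1, Hbb-b1 and Alas2 are higher in adult Nrf2-/- than in adult wild-type epithelium.

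To see whether other genes of red cells followed the members, 5 lists were read, with 62 of 69 genes on the array. They held 15 genes of heme synthesis, 18 of the red cell membrane and its skeleton, 14 regulators of erythroid cells and globin switching, 14 of iron uptake and red cell enzymes, and Hbq1. Between the labels E11.5 and E15.5, 0 of 62 passed in limma, and 0 of 19708 genes in all (0%), of which 324 had an unadjusted p under 0.05. The list median was -0.11, beside -0.01 over all genes. Without both arrays that stood apart, 7 of 60 list genes were called, 3 higher and 4 lower, beside 13.8% of all genes. These arrays stood apart over the other genes too, so a larger count without them is no separate support.

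From E15.5 to P0, 6 of 62 list genes were called (9.68%; 5 higher, 1 lower), beside 19.6% of all genes (11.3% higher, 8.34% lower), and the median was -0.10 beside -0.01. Tmod1, which caps actin in the membrane skeleton, was higher by 1.78 ± 0.52 (adjusted p = 0.0346). Alad, the second enzyme of heme synthesis, was 1.07 higher, Ank1, which anchors the skeleton to the membrane, 0.97, the repressor Zbtb7a 0.88, and the transferrin receptor Tfrc 0.80. Add2, a skeleton protein, was lower at P0 on all 3 arrays, with -0.83, -0.82 and -0.89 against -0.14, -0.10 and -0.17. Without both arrays Tmod1 was no longer called (1.53, adjusted p = 0.0981) and the other 5 were, among 11 list genes called in all, of which 5 were higher and 6 lower. With all 27 arrays in 1 fit 6 were higher and 8 lower, so that the balance towards higher was not kept. The count was 3 without P0 replicate 1 or 3. Striated muscle markers averaged -0.08 to 3.04 on the E15.5 arrays and 4.40 to 4.61 on the P0 arrays. Their part in the result was not tested.

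From P0 to P7, 4 of 62 were called (6.45%), beside 2.44% of all genes (1.43% higher, 1% lower), with a median of 0.22 beside 0.01. Abcb10, a mitochondrial transporter needed for heme synthesis, was 1.12 ± 0.17 higher (adjusted p = 0.00763), Ppox, which makes protoporphyrin, 1.00 higher, and Tfrc 0.66 higher. Alad was lower by 1.13 ± 0.19 (0.0105), with -0.85, -1.01 and -1.33 at P7 against -0.03, 0.17 and 0.07 at P0. With the replicate number as a block, which pairs the arrays in this comparison, Ppox was not called (adjusted p = 0.0511) and the other 3 were. The count fell to 1 without P0 replicate 2.

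From P7 to adult epithelium, 28 of 54 tested list genes were called (51.9%), beside 42.9% of all genes (19.9% higher, 22.9% lower). Of 13 genes of the membrane and skeleton, 8 were lower and 0 higher, with a median of -0.81 beside 0.01 over all genes. Of 18 measured, 13 to 14 were well above background on single P7 arrays and 10 to 11 on single adult arrays. Genes that passed the filter only through P7 arrays could hardly be called as higher. Slc4a1, the band 3 anion exchanger, read 1.40, 0.99 and 1.64 in adults against 2.54, 4.22 and 3.12 at P7 (-1.95 ± 0.40, adjusted p = 0.00692). Tmod1 (-3.11), Eraf (-2.81), now named Ahsp and a chaperone of free alpha chains, and the carbonic anhydrase Car2 (-2.27) were lower too, as were the regulators Zfpm1 (-1.71), Lmo2 (-1.45) and Tal1 (-1.30). Eraf passed the filter only through the P7 arrays, where it was high, so the filter favoured its call as lower.

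Not all red cell list genes moved down. The 11 that were higher in adult epithelium included Trfr2, now Tfr2, a transferrin receptor (1.85), Zbtb7a (1.22), Bcl11a, a repressor of embryonic globins (0.95), and Hemgn (0.78). The heme genes Alad (1.20), the transporter Abcb6 (1.03) and Cpox (1.00) were higher, as was Hagh (0.89), whereas 1 heme enzyme was lower, Urod (-0.76), named here after its values were seen. Enzymes of heme synthesis other than Alas2 are made in most tissues. Striated muscle and endothelial markers, given above, were also lower in adult epithelium than at P7. Their part in the list result was not tested. Car2 was called in only 2 of 6 tests with an array left out, Hemgn in 2 and Trfr2 in 3.

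Between genotypes at P7, 0 of 60 list genes were called in Nrf2-/- esophagi, beside 0.0157% of all genes. In Nrf2-/-Keap1-/- esophagi 0 of 60 were called, beside 0.488% of all genes, of which 3307 had an unadjusted p under 0.05. With so few genes called in all, these counts say little about the lists. In Keap1-/- esophagi 14 of 60 were called (23.3%), beside 33.5% of all genes (15.5% higher, 18.1% lower), with a median of 0.00 beside -0.02. Of the 15 heme genes 5 were higher and 1 was lower. Blvrb, which reduces biliverdin, was 3.03, 2.65 and 2.68 on the Keap1-/- arrays against -0.34, -0.26 and -0.33, an 8.59-fold difference (3.10 ± 0.15, adjusted p = 2.33e-07).

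The other increases in Keap1-/- esophagi were largest in the heme genes Abcb6, Alas1 and Alad. Abcb6 rose by 2.14 ± 0.15 (adjusted p = 3.8e-06), and Alas1, the form of the first heme enzyme used outside red cells, by 1.99 ± 0.15 (5.6e-06). The red cell form Alas2 was not called in this fit. It was called as higher with Feature Extraction's own processed signals (0.62, adjusted p = 0.0186) and with array medians (0.64, 0.00197). Alad rose by 1.68, the mitochondrial iron importer Slc25a37 by 0.73, BC010801, now Slc25a38, by 0.69, Hagh by 0.61, Zbtb7a by 0.49 and the peroxiredoxin Prdx2 by 0.39. The 5 that fell were Zfpm1 (-0.95), Tspan33 (-0.91), Hemgn (-0.81), Myb (-0.49) and Fech (-0.47), the enzyme that inserts iron into heme. Without Keap1-/- replicate 2 the count was 7, and without replicate 3 it was 8.

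Markers of other blood and plasma components also differed on the Keap1-/- arrays. The 7 liver and plasma protein markers averaged -0.05 to 0.57 there and 2.94 to 4.38 in wild-type esophagi. The 7 platelet markers averaged -0.62 to -0.16 against 0.69 to 0.97. Most of the difference in this mean lay in 1 gene of the 7, Cxcl7, a platelet chemokine. It read 0.51, -0.64 and -0.62 against 6.35, 6.54 and 6.23, so the mean does not speak for platelet markers in general. Endothelial markers averaged 3.02 to 3.23 against 2.68 to 2.97. Their part in the result was not tested.

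In adult Nrf2-/- epithelium 2 of 49 list genes were called (4.08%), beside 0.432% of all genes (0.222% lower), with a median of 0.06 beside 0.02. Blvrb was lower, with -0.57, -0.44 and -0.47 against 0.46, 0.57 and 0.25 (-0.92 ± 0.12, adjusted p = 0.0321). Abcb6 was 0.03, -0.11 and 0.13 against 0.83, 0.88 and 0.73 (-0.79 ± 0.12, 0.04). These genes had been the highest risers among the lists in Keap1-/- esophagi. With slide as a random block neither was called (adjusted p = 0.137 for Blvrb and 0.19 for Abcb6 with an estimated correlation), nor with the replicate block (0.116 and 0.142). Each call was kept in 1 of 6 tests with an array left out.

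**Figure D5:**
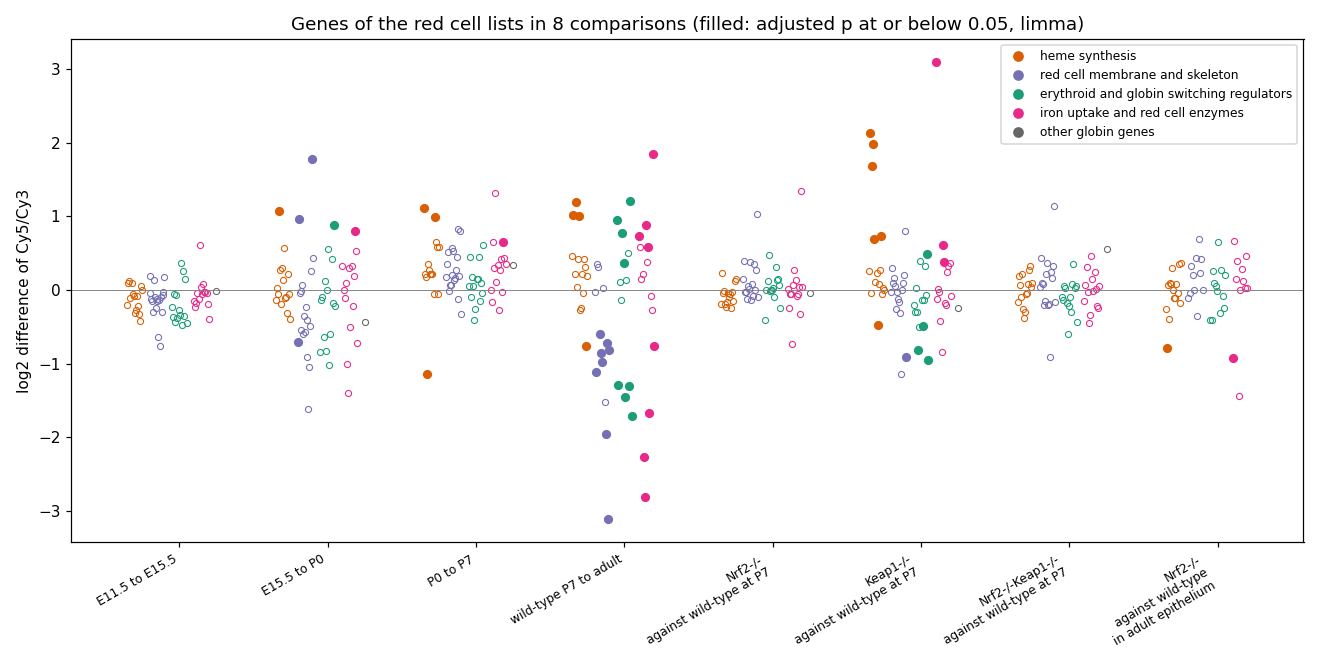
Log2 difference of Cy5/Cy3 (y axis) of each tested gene of the 5 red cell lists in 8 comparisons (x axis), coloured by list. Filled points have an adjusted p of 0.05 or lower in limma. Filled points are most frequent from P7 to adult epithelium (28 of 54, beside 42.9% of all genes called) and in Keap1-/- esophagi (14 of 60, beside 33.5%). In the first, the membrane and skeleton genes called are all lower, and in the second, Blvrb and 3 heme genes lie highest.

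Other genes tracked the members across the arrays. Over 27 arrays and 20725 genes compared, the mean ratio of the embryonic globins correlated best with A230070E04Rik (r = 0.97), 4933426K21Rik (0.96), Cldn6, a tight junction protein (0.96), Nef3, a neurofilament (0.96), and Gabra5, a GABA receptor subunit (0.95). Without the 6 embryonic arrays these correlations were between -0.32 and 0.31. The mean of the adult globins correlated best with H19 (0.94), Lrrn2 (0.91), Cdkn1c (0.91), Igf2r (0.90) and Cart (0.90). Alas2 correlated best with Cart (0.96), Gtl2 (0.96), H19 (0.96), Lrrn2 (0.96) and Rian (0.95). For the adult globins and Alas2 the correlations were 0.92 to 0.98 without the embryonic arrays, over 21 arrays in which age, tissue and slide change together. H19, Cdkn1c, Igf2r, Gtl2 and Rian are imprinted genes that are known for high levels in fetal tissue.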

How the data were processed

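Gene expression was measured on 27 two-colour arrays. The authors deposited scanner files with spot intensities per channel and background from Agilent Feature Extraction (9.1 per the labels, 10.5.1.1 or 10.7.3.1 per the file headers), and a table of log10 ratios of Cy5 to Cy3. From the deposited intensities, log2 ratios were computed with limma 3.58.1 in R 4.3.3 (normexp, offset 50, loess within arrays with control spots at weight 0). Spots were dropped where the local background exceeded 5 times its array median, which removed no member spot. Outlier-marked spots were kept and probes of a gene averaged. A gene entered a fit if any of its probes passed the scanner's well-above-background test in Cy5 on 3 arrays or more. Tests were limma's moderated test with Benjamini-Hochberg adjustment over all genes, called at 0.05, in fits of the 12 wild-type E11.5 to P7 arrays, the 12 P7 arrays, the 6 wild-type P7 and adult arrays and the 6 adult arrays. The code was tested on simulated data. The methods' SAM test was not run here.

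The members, gene lists and tests were chosen with earlier results of these data known. By rule, named genes were the members, Nfe2l2 and Keap1, up to 8 called list genes per direction by size, and the 5 genes most correlated with each set. Prdx2, Urod, Hbq1, Cxcl7 and Alb1 were named outside this rule. A gene that this rule names is not reported here. The number of arrays limits precision. Same-numbered P0 and P7 arrays deviated together (r = 0.12 to 0.36 in 3 of 3 pairs), in no other comparison in all 3. Replicate numbers are from the labels. Alternatives were the scanner's processed signals, the authors' log ratios, array medians, no outlier spots, no filter, all 27 arrays in 1 fit, a replicate block, slide as a random block (statmod 1.5.0), leaving out arrays, and, chosen after seeing the data, the Cy5 level alone. Promoters came from RefSeq, GRCm38.p6, and 120 bases before the start were searched.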

Additional observations from a re-analysis of the deposited data

How the results depend on the processing

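Of 278 alternative values of the counts and stage differences, 218 kept close to the reported value and 60 moved. Of 1316 for single genes, 1085 stayed, 40 moved, 154 lost their call, 10 gained one and 27 changed sign. The cause was not tested.

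Without the arrays labelled E11.5 replicate 3 and E15.5 replicate 1, the red cell list count was 7 from E11.5 to E15.5 and 11 from E15.5 to P0, and the change of embryonic minus adult globins from E11.5 to E15.5 was -3.94 in place of -1.51 (-2.93 to -0.79 with 1 array left out). These arrays stood apart in this same difference. The change from E15.5 to P0 was -3.12 with all arrays. It was -1.70 without the array labelled E15.5 replicate 1, and -3.84 to -1.70 with 1 array left out. The list count from E15.5 to P0 was 14 with all 27 arrays in 1 fit and 3 to 11 with an array left out. From P0 to P7 it was 2 with array medians and on the Cy5 level alone, and 1 to 4 with an array left out, and the globin change was -0.0729 with array medians (reported -0.35, leave-one-out -0.44 to -0.21). From P7 to adult the list count was 17 with array medians (21 to 26 with an array left out), and the globin change was 1.96 from the deposited log ratios, 1.83 with array medians, 2.02 without outlier-marked spots and 6.22 on the Cy5 level alone (reported 2.31, leave-one-out 2.18 to 2.42).

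In Keap1-/- esophagi the list count was 22 with array medians and 7 to 14 with an array left out. Member calls were 1 from processed signals or deposited log ratios (Alas2, 0.62, adjusted p 0.0186 and 0.0185), 2 with array medians and 0 to 1 with an array left out. In Nrf2-/-Keap1-/- esophagi member calls were 0 with processed signals, deposited log ratios, array medians, the Cy5 level, all 27 arrays and the replicate block, and 0 to 1 with an array left out. In adult epithelium the list count was 0 with processed signals, deposited log ratios, array medians, the replicate block and the slide block, 1 without outlier-marked spots and on the Cy5 level, and 0 to 2 with an array left out. Member calls there were 1 with array medians and 1 on the Cy5 level, and 0 with any array left out.

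The differences that changed sign were uncalled in both settings. In Nrf2-/- at P7, Hbb-y was 0.0073 with processed signals or deposited log ratios, 0.16 with array medians, 0.0332 without Nrf2-/- replicate 1 and 0.0079 without wild-type replicate 3 (-0.1415 to 0.0332 over all arrays left out). Alas2 there was 0.0908 with processed signals or deposited log ratios, 0.10 with array medians, 0.006 with the slide block, 0.01 and 0.08 without Nrf2-/- replicate 1 or 2, and 0.14 without wild-type replicate 2 (-0.1087 to 0.14 over all). In Keap1-/-, Hbb-y was 0.41 with processed signals or deposited log ratios, 0.26 with array medians and 0.0025 without wild-type replicate 3 (-0.1192 to 0.0025 over all). Hba-a1 was -0.53 and Alas2 -0.29 on the Cy5 level, and Hbb-b1 0.13 with array medians and 0.0548 without outlier-marked spots. In Nrf2-/-Keap1-/-, array medians gave 0.0761 for Hba-a1 and 0.0679 for Hbb-b1, and the Cy5 level 0.99 and 0.45. In adults, Hbb-y was -0.0336 on the Cy5 level and Hbb-b1 -0.0517 with processed signals or deposited log ratios.

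With the replicate number as a block, which pairs arrays only from P0 to P7, the list count there was 3 in place of 4. The slide block was not run for Keap1-/-, whose slide held no other group, and leaving out outlier-marked spots gave no globin stage change for contrasts with E11.5 or E15.5. Signal over background limits Hbb-bh1 and Hba-x to bounds from P0 on.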
